A study of Mus musculus with 12 samples.

Results

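The genes of the constitutive proteasome were described in CD4+ T cells of mouse spleen, with and without the deacetylase gene Sirt2. The set held every symbol of the Psma, Psmb, Psmc, Psmd, Psme, Psmf and Psmg series with at least 30 reads summed over 12 libraries, without the interferon-inducible subunits Psmb8, Psmb9 and Psmb10. Of 45 such symbols among the 23479 in the count files, 44 were kept. The member with the fewest reads inside the limit was Psmb11, and the symbol outside it, Psma8, had 0 reads. All 44 passed the filter on low counts. They comprise 7 alpha and 8 beta genes of the core, 6 ATPases and 3 other genes of the base of the cap, 8 genes of its lid, 4 activators, 1 inhibitor, 4 assembly factors of the core and 3 of the base.

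WT cells came from C57BL/6J mice and KO cells from Sirt2-/- mice, whose strain background is labelled C57BL/6. The labels name no Cre, clone or cell type restriction for the KO. Cells were enriched by removal of other cell types and gave RNA directly (0 h) or once they had spent 24 h on anti-CD3 antibody fixed to the plate (clone 145-2C11, 5 µg/ml). Each genotype at each time had 3 libraries, which makes 4 groups (named WT 0 h and so on). No sample of the 24 h groups was cultured without antibody, so antibody and culture cannot be told apart. The sources used here give neither the ages of the mice nor whether replicates came from separate mice. A p-value below therefore measures spread among libraries, and that spread may be technical.

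The proteasome is the protease of the cytosol and nucleus that degrades proteins tagged with ubiquitin. Stacked rings of alpha and beta subunits form a barrel whose beta subunits Psmb5, Psmb6 and Psmb7 cut peptides. A cap binds the ubiquitin chain (Psmd4), removes it (Psmd14) and unfolds the substrate with a ring of ATPases (Psmc1 to Psmc6). Activators of the Psme series dock on the same barrel without ATP. In T cells the proteasome also produces the peptides that MHC class I presents and degrades regulators of NF-κB signalling and of the cell cycle.

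Depth was 3.63 to 10.0 megareads in genes per library. Levels are TMM-scaled CPM, that is counts per megaread in genes after the trimmed-mean scaling of edgeR, with SD over n = 3. Sirt2 stood at 62.2 to 85.3 CPM in the 6 WT libraries and at 9.03 to 19.6 CPM in the 6 KO libraries, and the groups did not overlap. The T cell list (Cd3e, Cd3d, Cd3g, Cd4, Cd5, Lck, Lat) summed to 5490.5 to 6582 CPM at 0 h and to 2510.3 to 2913 CPM at 24 h. The 7 B cell markers summed to 16.8 to 30.7 CPM at 0 h and to 2.93 to 7.21 CPM at 24 h. The 9 myeloid markers summed to 8.13 to 17.7 CPM at 0 h and to 2.38 to 7.33 CPM at 24 h. The CD8 list (Cd8a, Cd8b1) summed to 17.3 to 18.5 CPM in WT 0 h and to 30.7 to 35.7 CPM in KO 0 h, with Cd8a at no more than 2.26 CPM. At 24 h it summed to 8.08 to 11 CPM in WT and to 8.78 to 14.7 CPM in KO. The 5 NK markers summed to 47.2 to 69.3 CPM over all groups, with Ncr1 at no more than 2.58 CPM, but they did not move alike. Klrb1c was at 14 to 27.3 CPM at 0 h and 0.201 to 0.918 CPM at 24 h, while Eomes was at 21.6 to 25.3 CPM at 0 h and 43.9 to 64.6 CPM at 24 h. The 5 erythroid markers summed to no more than 0.692 CPM in any library. Reads of the ribosomal precursor Rn45s made up 12.5% to 17.5% of gene reads at 0 h and 7.95% to 9.55% at 24 h. In such bulk RNA, fewer cells of a type and less RNA per cell cannot be told apart.

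The promoter windows of 4 members are shown because these genes have matches to the motifs searched and differed in their change with time. The motifs were the core of the antioxidant response element, TGACNNNGC, which NFE2L1 and NFE2L2 bind with small MAF proteins, and the core bound by ETS factors, CCGGAAG. Each window is the 250 bases before the RefSeq start on the gene's own strand, build GRCm38.p6, and capitals mark a match to either motif on either strand. Psmb5 (chr14:54617996-54618245, minus strand) and Psmd12 (chr11:107479278-107479527, plus strand) rose with time in both genotypes. Psmb6 (chr11:70525107-70525356, plus strand) and Psmd4 (chr3:95042615-95042864, minus strand) did not pass the test in either.
Psmb5: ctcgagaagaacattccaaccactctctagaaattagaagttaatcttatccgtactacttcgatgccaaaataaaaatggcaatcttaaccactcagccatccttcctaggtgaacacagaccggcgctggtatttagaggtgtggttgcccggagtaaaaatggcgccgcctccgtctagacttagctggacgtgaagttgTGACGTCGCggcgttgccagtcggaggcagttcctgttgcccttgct
Psmb6: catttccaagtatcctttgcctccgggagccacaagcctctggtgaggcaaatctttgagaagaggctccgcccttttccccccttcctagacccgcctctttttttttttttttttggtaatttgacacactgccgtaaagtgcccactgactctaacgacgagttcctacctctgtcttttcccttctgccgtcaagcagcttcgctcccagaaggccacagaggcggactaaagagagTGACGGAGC
Psmd12: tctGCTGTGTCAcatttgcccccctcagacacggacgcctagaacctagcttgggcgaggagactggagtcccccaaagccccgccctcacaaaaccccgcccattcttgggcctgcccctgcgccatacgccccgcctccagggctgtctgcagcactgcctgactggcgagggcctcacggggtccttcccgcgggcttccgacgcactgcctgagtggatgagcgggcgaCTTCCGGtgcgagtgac
Psmd4: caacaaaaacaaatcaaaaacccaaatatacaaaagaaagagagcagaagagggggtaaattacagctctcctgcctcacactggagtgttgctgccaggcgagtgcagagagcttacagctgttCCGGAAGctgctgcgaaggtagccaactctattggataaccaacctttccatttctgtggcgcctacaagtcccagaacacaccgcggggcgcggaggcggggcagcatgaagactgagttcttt
Of the 44 members, 37 had a window in the RefSeq table. The antioxidant response element core was in 5 of the 37 windows (13.5%), those of Psmb5, Psmb6, Psmc6, Psmd9 and Psmd12, against 11.5% of 27025 genes with a window and 14.2% of the 8237 that were tested. The ETS core was in 12 of 37 (32.4%), against 7.83% of all genes with a window and 17.4% of those tested. An inverted CCAAT box, ATTGG, was in 13 of 37 (35.1%), against 37.5% and 41.1%. The 3 motifs can overlap and both strands were searched. In WT, 2 of the 5 genes with the antioxidant core rose and 21 of the 32 without it did, and in KO 3 of the 5 and 16 of the 32. Over all genes tested, 20.2% rose in WT and 19.4% in KO, and differences by motif were not tested. For the ETS core, 8 of 12 rose with it and 15 of 25 without it in WT, and 8 of 12 and 11 of 25 in KO. These matches describe letters in the windows and are not evidence of binding.

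The first question was how the set changed over 24 h on anti-CD3. In WT, 26 of the 44 genes were higher at 24 h (59.1%), against 20.2% of the 10981 genes tested, and 0 were lower, against 20.5%. In KO, 22 were higher (50%), against 19.4%, and 0 were lower, against 21.0%. Calls came from the quasi-likelihood test of edgeR at a Benjamini-Hochberg adjusted p below 0.05, taken over all genes tested. The median log2 change of the 44 was 0.39 in WT and 0.31 in KO, while that of all genes was 0.00 in both. Log2 changes were positive for 41 genes in WT and 38 in KO, and the largest was 0.99 in WT (Psmd7) and 0.94 in KO (Psma7). The 2 comparisons share no libraries, but they come from the same fit with a shared estimate of the spread. Of the 44 genes 19 passed in both, and the share of all genes that did was not counted. The members' share of gene reads was 0.246% to 0.267% in the 6 libraries at 0 h and 0.381% to 0.409% in the 6 at 24 h, with no overlap.

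The size of the rise depended on the scaling, while the members' median lay above that of all genes under each scaling tried. With total gene reads in place of TMM, 37 genes passed as higher in WT and 32 in KO, and all 44 log2 changes were positive in both. The 11 genes added in WT were Psmb1, Psmb2, Psmb3, Psmb4, Psmb7, Psmc6, Psmd5, Psmd6, Psmd13, Psme2 and Psmf1. The 10 added in KO were Psma4, Psma6, Psmb1, Psmb3, Psmb4, Psmd8, Psmd14, Psmf1, Psmg2 and Psmg4. Of the 10981 genes tested, 3580 (WT) and 3708 (KO) passed as higher under that scaling, against 2217 and 2129 with TMM. Higher calls made up 70.9% (WT) and 72.5% (KO) of all calls, against 49.6% and 48.0% with TMM. With total gene reads the median of all genes was 0.21 in WT and 0.24 in KO. Relative to that median the members' median was 0.38 in WT and 0.32 in KO. Without Rn45s in the library sizes 26 genes passed in WT and 23 in KO. The summed levels of the T cell, B cell, myeloid and CD8 markers moved with time as given above, and their part in the rise was not tested.

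**Figure D1:**
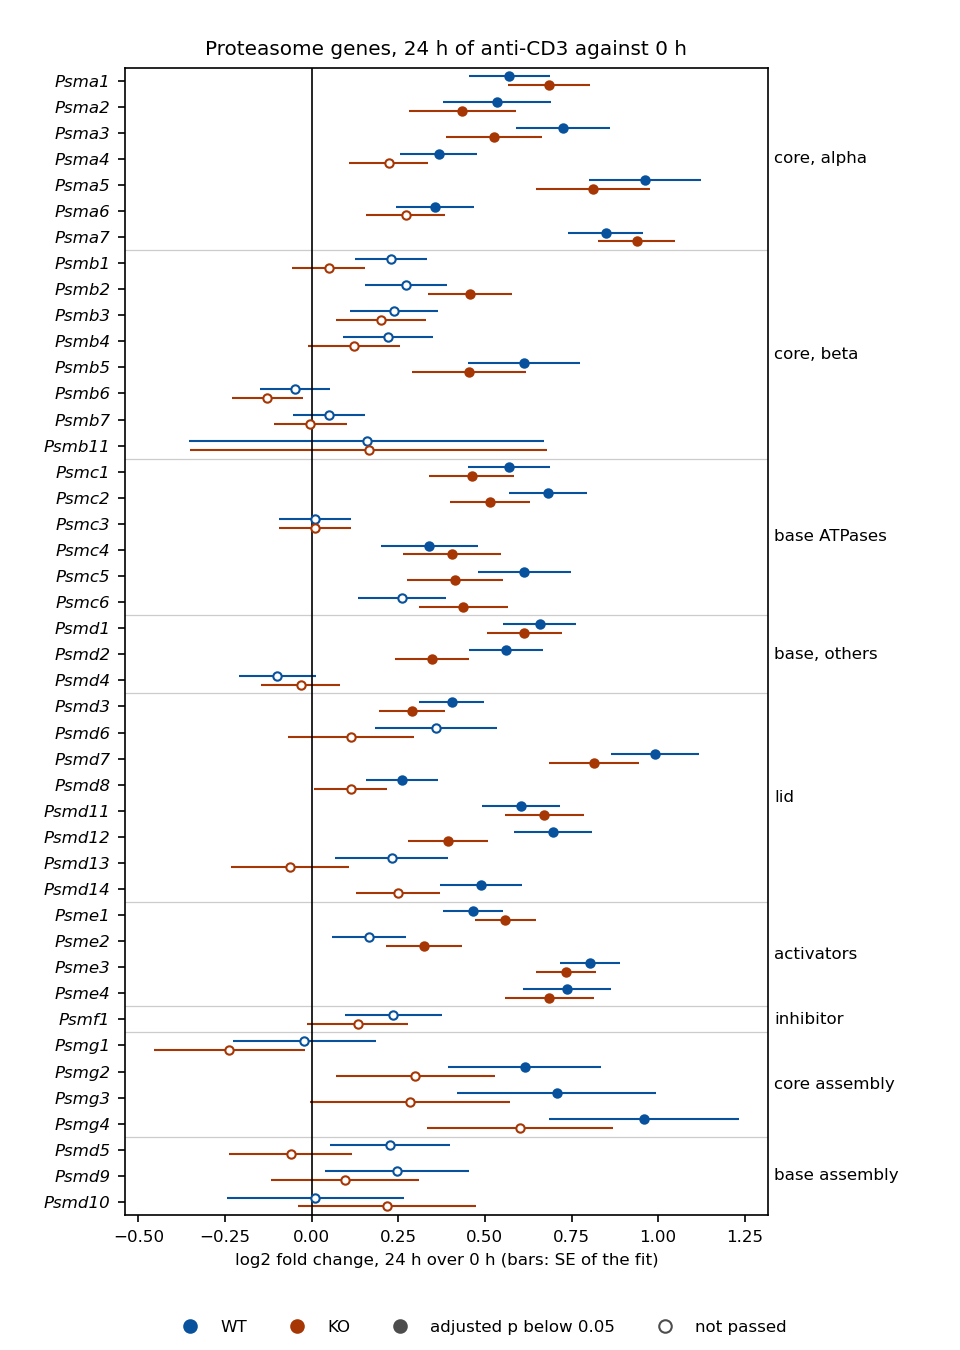
Log2 fold change from 0 h to 24 h (x axis, with the SE of the fit as bars) of the 44 genes, grouped by role, in WT (blue) and KO (red). Filled points passed at an adjusted p below 0.05. All 7 alpha genes are filled in WT, while of the 8 beta genes Psmb5 alone is filled in both genotypes.

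All 7 alpha genes, whose products form the outer rings and the gate of the barrel, rose in WT and 5 of 7 rose in KO. Of the 8 beta genes, 1 rose in WT (Psmb5, 12.5%) and 2 in KO (Psmb2 and Psmb5, 25%). Over all genes tested, 20.2% rose in WT and 19.4% in KO. The beta count depended on the scaling: with total gene reads 6 of 8 beta genes passed in WT and 5 of 8 in KO. With that scaling 7 of 7 alpha genes passed in both, and of the 10981 genes tested 3580 passed as higher in WT and 3708 in KO. With no filter on low counts 3 beta genes passed in WT. The alpha genes summed to 442 ± 40.3 CPM in WT 0 h and 651 ± 26.6 CPM in WT 24 h (n = 3). The beta genes summed to 444 ± 1.32 and 499 ± 30.8 CPM in the same groups (n = 3). In KO the alpha sum was 463 ± 30.4 and 652 ± 36.3 CPM, and the beta sum 458 ± 25 and 494 ± 27.3 CPM (n = 3). The difference between the rings was not tested.

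Within the alpha ring the highest change in WT was that of Psma5. Its level was 18.0, 17 and 15 CPM in WT 0 h, then 31.9, 32.3 and 32.9 CPM in WT 24 h. In KO it was 15.1, 17.9 and 20.5 CPM at 0 h and 31.8, 31.8 and 29.3 CPM at 24 h. Every library at 24 h lay above every library at 0 h. The log2 change was 0.96 in WT (SE 0.16, adjusted p = 3.51e-06, edgeR) and 0.81 in KO (SE 0.17, adjusted p = 8.08e-05, edgeR). The lowest change in the ring was that of Psma6, from 52.6, 50.5 and 56.3 to 66.6, 68.7 and 68.6 CPM in WT. In KO it went from 58.0, 46.6 and 56.8 to 64.5, 65.5 and 65.1 CPM. The groups did not overlap in either genotype, but Psma6 passed in WT (log2 0.36, adjusted p = 0.00892, edgeR) and not in KO (log2 0.27, adjusted p = 0.053, edgeR). The KO change passed under several alternatives, among them size factors by relative log expression (adjusted p = 0.0455, edgeR) and no filter on low counts (adjusted p = 0.0485, edgeR). Psma7 had log2 changes of 0.85 in WT and 0.94 in KO. The call on Psma4 in WT was lost without WT 0 h replicate 2 (adjusted p = 0.0893, edgeR). That on Psma2 in KO was lost without KO 0 h replicate 2, KO 24 h replicate 2 or KO 24 h replicate 3 (adjusted p = 0.0688 to 0.125, edgeR).

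Of the 3 peptide-cutting subunits of the constitutive barrel, Psmb5 rose in both genotypes, and Psmb6 and Psmb7 passed in neither. Psmb5, the chymotrypsin-like subunit, stood at 18.9, 17.9 and 16.5 CPM in WT 0 h, then at 25.5, 27.2 and 28.4 CPM in WT 24 h. In KO its levels were 18.7, 19.3 and 21.1 CPM at 0 h and 28.2, 25.3 and 27.3 CPM at 24 h. Both pairs of groups were apart, with log2 changes of 0.61 (SE 0.16, adjusted p = 0.00188, edgeR) and 0.45 (SE 0.16, adjusted p = 0.0243, edgeR). The KO call was lost without KO 0 h replicate 1, KO 24 h replicate 1 or KO 24 h replicate 3 (adjusted p = 0.0531 to 0.0864, edgeR). Psmb6, the caspase-like subunit, was at 83.2, 79.7 and 84.1 CPM in WT 0 h, then 80.7, 77.2 and 81.4 CPM in WT 24 h. Its KO libraries read 79.6, 79.6 and 70.2 CPM at 0 h and 72.0, 71.2 and 66.9 CPM at 24 h. The groups of each genotype overlapped, and the log2 changes of -0.05 (SE 0.10) and -0.13 (SE 0.10) did not pass. Psmb7, the trypsin-like subunit, was at 94.5, 88.3 and 79.5 CPM in WT 0 h, then 89.7, 89.5 and 92.0 CPM in WT 24 h. In KO it was at 103, 81.7 and 85.0 and then 84.7, 94.6 and 90.5 CPM. Its groups overlapped and its log2 changes were 0.05 (SE 0.10) and -0.00 (SE 0.10). With total gene reads the log2 changes of Psmb6 and Psmb7 were positive in both genotypes, and that of Psmb7 in WT passed (log2 0.25, adjusted p = 0.0406, edgeR).

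Of the beta genes that do not cut, Psmb1, Psmb2, Psmb3 and Psmb4 had log2 changes of 0.22 to 0.27 in WT, none past the threshold. In KO, Psmb2 passed with 0.46 (SE 0.12, adjusted p = 0.00197, edgeR) and the rest lay between 0.05 and 0.20. Psmb11, the beta subunit of the thymic cortex, is not one of these genes. It was near the lower limit of measurement at 1.39 to 4.94 CPM over all 12 libraries. Its SD over a mean was 41.3% to 55.9% in the 4 groups, the highest of the 44 genes in each.

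**Figure D2:**
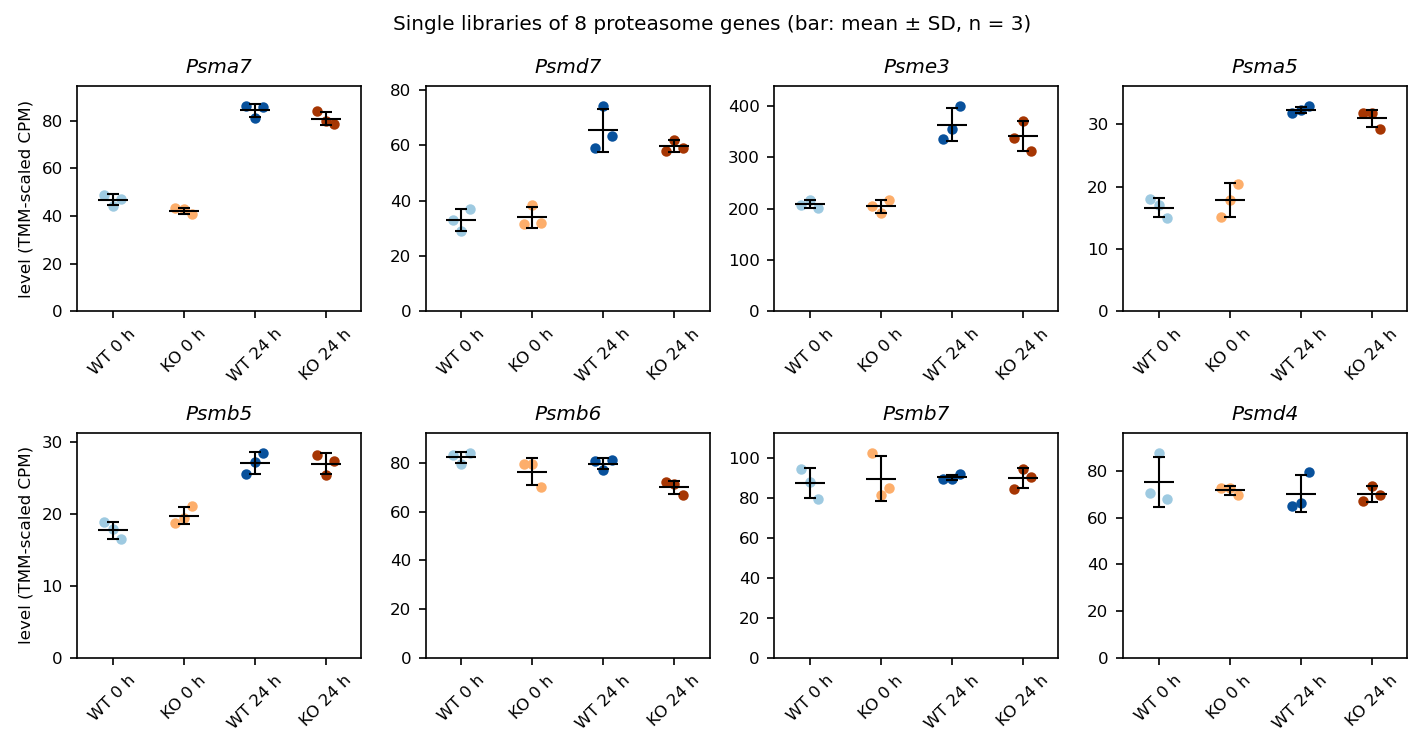
TMM-scaled CPM (y axis, from 0) of 8 proteasome genes in each of the 12 libraries, with mean ± SD over 3 libraries a group in black. Psma7, Psmd7, Psme3, Psma5 and Psmb5 are higher in every library at 24 h than at 0 h, and the libraries of Psmb6, Psmb7 and Psmd4 overlap between the times of each genotype.

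Per exon length the core genes differed widely in level, and the ratio of the highest to the lowest was smaller at 24 h. RPKM here is TMM-scaled CPM per kilobase of exon in the GENCODE annotation. Over the 14 alpha and beta genes without Psmb11, levels in WT 0 h ran from 11 ± 2.14 RPKM (Psma3) to 103 ± 2.92 RPKM (Psmb6), a ratio of 9.40 (n = 3). In WT 24 h the same genes marked the ends with 18.1 ± 2.36 and 99.9 ± 2.82 RPKM, a ratio of 5.52 (n = 3). In KO that ratio was 7.65 at 0 h and 4.87 at 24 h. Over the 17 base and lid genes it rose, from 4.19 to 4.75 in WT and from 4.07 to 5.11 in KO. Each such ratio rests on its end genes alone and was not tested. The median of the 14 genes was 45.8 RPKM in WT 0 h and 69.3 RPKM in WT 24 h. In WT 0 h the order from the top was Psmb6, Psmb7 (75.4 ± 6.48 RPKM, n = 3), Psma4 (73.4 ± 14.1 RPKM, n = 3) and Psmb3 (65.9 ± 7.13 RPKM, n = 3). Psmb7 and Psma4, and Psma4 and Psmb3, differed by less than the SD of Psma4, while Psmb6 stood above them. The lowest were Psma3, Psma5 (13.5 ± 1.23 RPKM, n = 3) and Psmb5 (19.7 ± 1.32 RPKM, n = 3).

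These 3 lowest genes all have near copies elsewhere in the annotation, as do Psma4 and Psmb3, which stood near the top in WT 0 h. The members with one, by a match of at least 95% identity over at least 25% of the transcript: Psma3, Psma4, Psma5, Psmb3, Psmb5, Psmc1, Psmd2, Psmd11 and Psme2 (9 genes). Reads that align to several places were not counted for any gene, so the levels of such genes may be understated. The rank by RPKM also depends on the exon length taken. Psma3, at 2.85 kb, was at 31.2 CPM in WT 0 h, above Psma5 (1.24 kb, 16.7 CPM) and Psmb5 (0.899 kb, 17.7 CPM). In WT, 7 of the 9 rose with time, and 19 of the 35 members without a near copy did. In KO the counts were 7 of 9 and 15 of 35. Over all genes tested, 20.2% rose in WT and 19.4% in KO, and the difference by near copy was not tested. A further limit is overlap: exons of 7 members share at least 5% of their length with another gene, namely Psma4, Psmb5, Psmb7, Psmc3, Psmd1, Psmd13 and Psmg3. The partner of Psmd13 is Sirt3, on the opposite strand, and that of Psmb7 is Nek6, which covers 34.9% of its exon length. Of the 30 members with neither a near copy nor such an overlap, 17 rose in WT and 14 in KO.

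**Figure D3:**
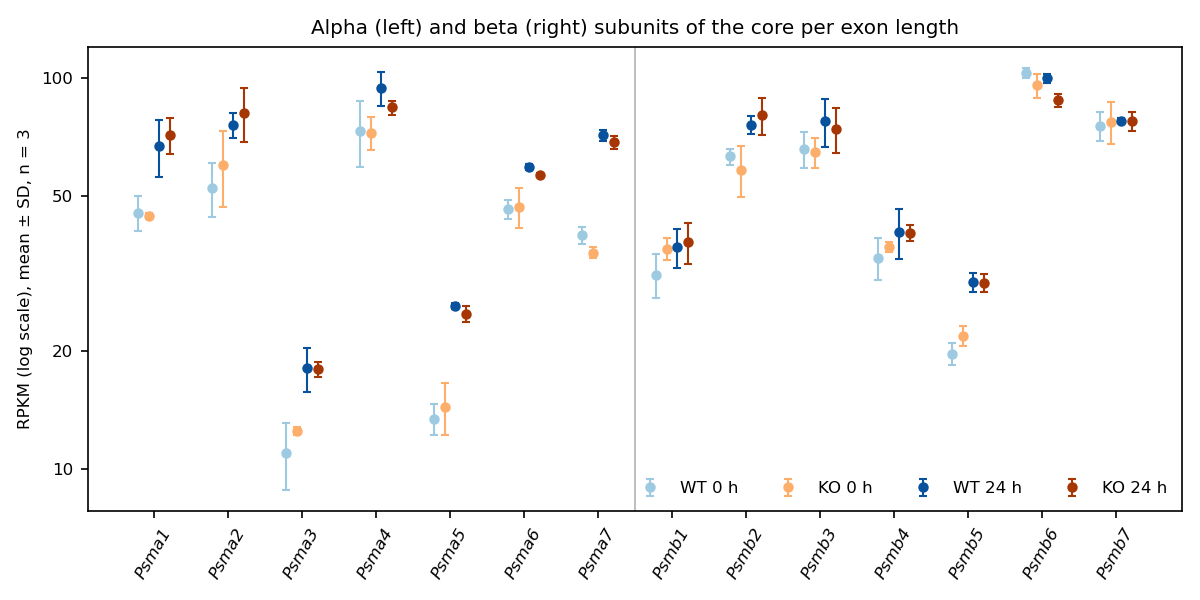
Level per exon length (RPKM, log axis) of the 14 core genes, alpha at the left and beta at the right, as mean ± SD of 3 libraries in each of the 4 groups. Psmb6 has the highest mean in every group and Psma3 the lowest, and the mean of each alpha gene is higher at 24 h than at 0 h in both genotypes, though Psma4 and Psma6 did not pass in KO.

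In the base of the cap, 4 of 6 ATPase genes rose in WT and 5 of 6 in KO, against 20.2% and 19.4% of all genes tested. The highest change in WT was that of Psmc2, at 59.0, 68.5 and 76.8 CPM in WT 0 h, then 119, 94.6 and 116 CPM in WT 24 h. Its KO levels were 58.6, 61.9 and 65.8 CPM at 0 h and 77.9, 98.3 and 89.5 CPM at 24 h. The times were apart in both genotypes, with log2 changes of 0.68 (SE 0.11, adjusted p = 2.04e-06, edgeR) and 0.52 (SE 0.12, adjusted p = 0.000288, edgeR). Psmc3 was the lowest, at 73.7, 83.5 and 83.4 CPM in WT 0 h, then 91.3, 76.6 and 75.5 CPM in WT 24 h. In KO it was at 80.9, 78.3 and 83.5 and then at 85.9, 79.6 and 78.5 CPM. The groups overlapped and the log2 change was 0.01 in both genotypes (SE 0.10 and 0.11). Exons of Psmc3 overlap Slc39a13 over 10.5% of their length. Psmc6 passed in KO (log2 0.44) and not in WT (log2 0.26). Psmc4 passed in WT at an adjusted p of 0.0484 (edgeR), and this was lost without WT 0 h replicate 1, WT 0 h replicate 3 or WT 24 h replicate 3 (adjusted p = 0.0816 to 0.504). It was lost too with DESeq2 (adjusted p = 0.0911), with the replicate number as a block (adjusted p = 0.0643, edgeR) and with only the libraries compared in the fit (adjusted p = 0.0645, edgeR). In KO the Psmc4 call was lost without KO 24 h replicate 2 or 3 (adjusted p = 0.0556 and 0.101, edgeR), and the Psmc5 call without KO 24 h replicate 1 (adjusted p = 0.0774, edgeR).

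The base also holds the scaffolds Psmd1 and Psmd2 and the ubiquitin receptor Psmd4. Psmd1 rose from 83.7, 64.6 and 69.5 CPM in WT 0 h to 118, 99.6 and 126 CPM in WT 24 h. In KO it rose from 70.6, 73.7 and 70.0 to 104, 117 and 107 CPM. The log2 changes were 0.66 (SE 0.11, adjusted p = 1.54e-06, edgeR) and 0.61 (SE 0.11, adjusted p = 7.72e-06, edgeR), and no library at 24 h reached down to those at 0 h. Psmd4 had 70.4, 87.7 and 68.0 CPM in WT 0 h, then 65.0, 66.4 and 79.6 CPM in WT 24 h. Its KO libraries held 72.7, 72.9 and 69.6 CPM at 0 h and 67.1, 73.7 and 69.8 CPM at 24 h. Its groups overlapped, and its log2 changes were -0.10 (SE 0.11) in WT and -0.03 (SE 0.11) in KO with TMM. Both were positive with total gene reads.

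Of the 8 lid genes, 6 rose in WT and 4 in KO, against 20.2% and 19.4% of all genes tested. Psmd7, the partner of the deubiquitylating subunit in the lid, had the highest change in WT. It went from 32.9, 29.2 and 36.9 to 59.0, 74.0 and 63.3 CPM in WT and from 31.7, 38.4 and 31.8 to 57.8, 62.0 and 59.2 CPM in KO. The times were far apart, with log2 changes of 0.99 (SE 0.13, adjusted p = 1.29e-08, edgeR) and 0.81 (SE 0.13, adjusted p = 1.46e-06, edgeR). Psmd14, which cuts ubiquitin chains off the substrate, went from 47.6, 44.2 and 46.8 to 57.0, 62.9 and 73.9 CPM in WT. In KO it went from 54.6, 52.2 and 47.4 to 67.7, 60.7 and 54.9 CPM. The groups did not overlap in either genotype, but only the WT change passed (log2 0.49, SE 0.12, adjusted p = 0.000834, edgeR), that in KO having a log2 of 0.25 and an adjusted p of 0.0984. Psmd13 had the lowest change in WT, from 25.4, 29.3 and 20 to 26.1, 29.2 and 31.9 CPM (log2 0.23, SE 0.16). In KO it was at 27.4, 23.5 and 25.2 and then at 20.5, 28.3 and 24.4 CPM, and the groups of both genotypes overlapped. Psmd6 and Psmd13 passed in neither genotype. The Psmd8 call in WT was lost without WT 0 h replicate 1 or 2 or WT 24 h replicate 1 or 3 (adjusted p = 0.0674 to 0.227, edgeR) and with DESeq2 (adjusted p = 0.0753), and that on Psmd3 in KO without KO 24 h replicate 2 (adjusted p = 0.0514, edgeR).

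Of the activators, 3 of 4 rose in WT and 4 of 4 in KO, against 20.2% and 19.4% of all genes tested. Psme3, the activator found mainly in the nucleus, stood at 207, 217 and 201 CPM in WT 0 h, then at 336, 356 and 399 CPM in WT 24 h. In KO it was at 206, 192 and 217 CPM and then at 338, 371 and 313 CPM. Its log2 changes were 0.80 (SE 0.09, adjusted p = 1.27e-10, edgeR) and 0.73 (SE 0.09, adjusted p = 1.77e-09, edgeR), with every 24 h library above every 0 h library. Psme4, a large single-chain activator, went from 37.5, 45.5 and 37.4 to 65.0, 73.6 and 62.0 CPM in WT and from 38.1, 39.7 and 51.3 to 67.5, 63.0 and 76.6 CPM in KO. These groups were apart too, with log2 changes of 0.74 (SE 0.13) and 0.69 (SE 0.13), both past the threshold.

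Psme1 and Psme2 form the interferon-inducible activator together. Psme1 rose from 399, 358 and 355 to 495, 467 and 574 CPM in WT and from 380.2, 339.5 and 355 to 484, 554 and 546 CPM in KO. The log2 changes were 0.47 (SE 0.09) and 0.56 (SE 0.09), both past the threshold, and the times did not overlap. Psme2 was at 95.3, 87.3 and 80.9 CPM in WT 0 h, then at 84.7, 95.5 and 114 CPM in WT 24 h, overlapping, with a log2 change of 0.17 (SE 0.11) that did not pass. In KO it went from 94.6, 76.9 and 96.3 to 105, 111 and 119.8 CPM, without overlap, and passed (log2 0.32, SE 0.11, adjusted p = 0.0147, edgeR). This call was lost without KO 0 h replicate 2 or KO 24 h replicate 3 (adjusted p = 0.0848 and 0.0798, edgeR). Per exon length Psme1 was the highest of the 44 genes in WT 0 h, at 333 ± 21.8 RPKM, against 90.0 ± 7.42 RPKM for Psme2, which has a near copy (n = 3). Psmf1, which binds the core and is known as its inhibitor in the test tube, was at 46.5, 37.6 and 37.5 CPM in WT 0 h, then at 44.8, 40.9 and 57.1 CPM in WT 24 h. Its KO libraries read 41.9, 35.6 and 36.9 and then 41.9, 48.0 and 35.3 CPM. All these groups overlapped, with log2 changes of 0.24 (SE 0.14) and 0.13 (SE 0.14), neither past the threshold.

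Of the 4 assembly chaperones of the core, Psmg2, Psmg3 and Psmg4 rose in WT and 0 of 4 passed in KO. Over all genes tested, 20.2% rose in WT and 19.4% in KO. In KO 1 of these 4 chaperones had an unadjusted p below 0.05 (edgeR), against 5233 of the 10981 genes tested. Psmg4 had the highest change, from 3.81, 6.5 and 4.88 to 10.0, 10.7 and 9.06 CPM in WT (log2 0.96, SE 0.27, adjusted p = 0.0040, edgeR). In KO it went from 7.82, 8.06 and 6.02 to 11.9, 10.6 and 10.9 CPM (log2 0.60, SE 0.27, adjusted p = 0.0699, edgeR). The times did not overlap in either genotype. Psmg1 was lowest, at 18.3, 21.0 and 20 CPM in WT 0 h, then 17.3, 16.2 and 25.1 CPM in WT 24 h, and at 24.7, 16.3 and 11.8 CPM and then 13.3, 16.6 and 15.9 CPM in KO. These groups overlapped, with log2 changes of -0.02 (SE 0.21) and -0.24 (SE 0.22) that did not pass and were positive with total gene reads. The Psmg2 call was lost without WT 0 h replicate 2 or 3 or WT 24 h replicate 3 (adjusted p = 0.0507 to 0.103, edgeR). The Psmg3 call was lost without WT 0 h replicate 1, 2 or 3 or WT 24 h replicate 2 or 3 (adjusted p = 0.0631 to 0.126, edgeR). It was lost too with DESeq2 (adjusted p = 0.0528), with no filter on low counts (adjusted p = 0.0633, edgeR) and with only the libraries compared in the fit (adjusted p = 0.0576, edgeR). In KO, Psmg2 and Psmg4 passed with total gene reads.

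None of the 3 chaperones of the base, Psmd5, Psmd9 and Psmd10, passed in either genotype, although Psmd5 passed in WT with total gene reads. Over all genes tested, 20.2% rose in WT and 19.4% in KO. Nor did any of the 3 reach an unadjusted p below 0.05 (edgeR). Of the 10981 genes tested, 5226 did in WT and 5233 in KO. Psmd9 had the highest change in WT, from 14.5, 13.6 and 13.4 to 18.9, 17 and 13.5 CPM (log2 0.25, SE 0.21), and in KO it was at 16.1, 16.9 and 10.5 and then 17.6, 12.9 and 16.7 CPM. Psmd10 had the lowest, from 8.13, 8.03 and 12.1 to 8.63, 8.83 and 11.1 CPM (log2 0.01, SE 0.25), and in KO it was at 9.54, 13.1 and 7.34 and then 12.8, 10.6 and 11.4 CPM. The libraries of both genes overlapped between the times.

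The second question was what loss of Sirt2 changed in this set. At 0 h, 0 of 44 genes passed as higher in KO, against 0.118% of the genes tested, and 0 as lower, against 0.228%. At 24 h, 0 passed as higher, against 0.182%, and 0 as lower, against 0.0911%. Log2 differences of KO against WT ran from -0.15 to 0.53 at 0 h (median 0.04) and from -0.36 to 0.28 at 24 h (median -0.06). These medians rested on single libraries, and that at 24 h moved with the scaling as the median of all genes did. The 0 h median was -0.00 without KO 0 h replicate 1. The 24 h median was 0.00 without WT 24 h replicate 3, when 23 genes were positive in place of 15, -0.03 without KO 24 h replicate 1 and 0.00 with total gene reads. Relative to the median of all genes, the 24 h median was -0.05 both with TMM and with total gene reads. Without WT 24 h replicate 3 this relative median was 0.01. The smallest adjusted p was 0.605 at 0 h and 0.474 at 24 h (edgeR), and DESeq2 also called 0 genes at both times. At an unadjusted p below 0.05, edgeR listed 1 of the 44 genes at 0 h and 3 at 24 h. Of the 10981 genes tested it listed 878 at 0 h and 775 at 24 h. The CD8 marker sum, given above, was higher in KO than in WT at 0 h, and its part in these differences was not tested.

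At 0 h the 3 smallest p-values were those of Psmb1, Psmg4 and Psmd8. Psmb1 was at 105, 95.6 and 123 CPM in WT 0 h and at 133, 117 and 126 CPM in KO 0 h. The groups overlapped and the log2 difference was 0.22 (SE 0.10, adjusted p = 0.605, edgeR). Psmg4, with the levels given above, had 6.02 to 8.06 CPM in KO 0 h against 3.81 to 6.5 CPM in WT 0 h and a log2 difference of 0.53 (SE 0.28, adjusted p = 0.666, edgeR). Psmd8, a lid gene that lies 15 genes from Sirt2 on chromosome 7, was at 98.5, 87.2 and 120.0 CPM in WT 0 h and at 113, 115 and 115 CPM in KO 0 h (log2 0.16, SE 0.11). At 24 h Psmd8 was at 120.0, 115 and 132 CPM in WT and 106, 137 and 129 CPM in KO. Psmc4 lies 28 genes from Sirt2 and had log2 differences of 0.05 at 0 h and 0.11 at 24 h.

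At 24 h the 3 smallest p-values belonged to ATPases of the base, all lower in KO. Psmc2 was at 77.9, 98.3 and 89.5 CPM in KO 24 h, against 119, 94.6 and 116 CPM in WT 24 h (log2 -0.31, SE 0.11, adjusted p = 0.474, edgeR). Psmc1 was at 58.9, 65.6 and 67.1 CPM against 82.7, 67.3 and 79.6 CPM (log2 -0.26, SE 0.12, adjusted p = 0.667, edgeR), which was the one pair of these 3 without overlap. At 0 h Psmc1 was at 48.4, 39.5 and 51 CPM in KO and 46.7, 51.6 and 55.5 CPM in WT. Psmc5 was at 52.5, 49.6 and 43.7 CPM against 55.4, 52.1 and 69.8 CPM (log2 -0.28, SE 0.13, adjusted p = 0.701, edgeR), and at 0 h at 40.5, 33.5 and 35.2 CPM in KO and 45.2, 33.9 and 37.3 CPM in WT. The remaining ATPases, Psmc3, Psmc4 and Psmc6, had positive log2 differences at 24 h, of 0.01 to 0.17.

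Genes whose 3 KO libraries all lay beyond the 3 WT libraries were counted as well. At 0 h, 1 member lay higher (Psmg3, 2.27%), against 6.04% of all genes tested, and 2 lay lower (Psma7 and Psmb6, 4.55%), against 6.36%. At 24 h, 0 members lay higher, against 5.74%, and 6 lay lower (Psma5, Psma6, Psmb6, Psmc1, Psmd12 and Psmg2, 13.6%), against 7.19%. Psmb6, named here after its values were seen, was in both lists of lower genes, with log2 differences of -0.10 at 0 h (SE 0.10) and -0.18 at 24 h (SE 0.10), neither past the threshold.

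**Figure D4:**
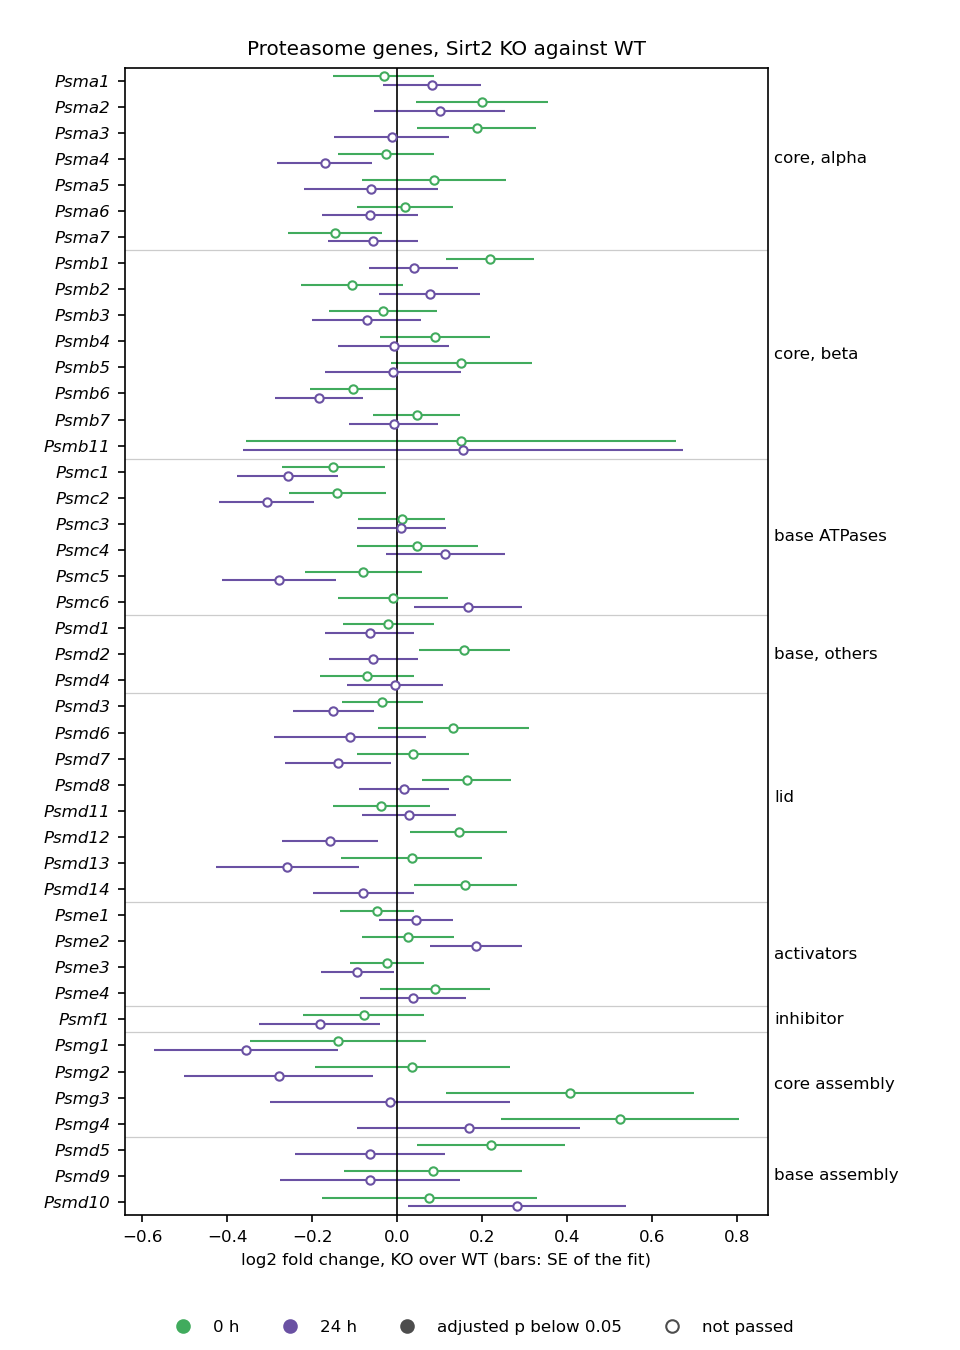
Log2 fold change of KO over WT (x axis, with the SE of the fit as bars) of the 44 genes at 0 h (green) and 24 h (purple), grouped by role. All points are open, since none passed at an adjusted p below 0.05.

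Whether the response to anti-CD3 differed between genotypes was asked with the interaction term. As a rise larger in KO it called 0 of 44 genes, against 0.00% of the genes tested, and as a rise smaller in KO it called 0, against 0.00911%. The smallest adjusted p was 0.952 (edgeR), and DESeq2 called 0. No member reached an unadjusted p below 0.05 (edgeR), against 575 of the 10981 genes tested. The interaction was negative for 33 of 44 genes, with a median of -0.11 on the log2 scale against -0.01 for all genes. Without KO 0 h replicate 1 the median was -0.06, and with total gene reads it was -0.07. Relative to the median of all genes it was -0.10 under both scalings. The genes that passed in WT alone (Psma4, Psma6, Psmd8, Psmd14, Psmg2, Psmg3, Psmg4) or in KO alone (Psmb2, Psmc6, Psme2) are thus not shown to differ between genotypes. The smallest p-value was that of Psmd12, a lid gene. It went from 43.3, 51.9 and 56.8 to 84.1, 79.8 and 83.3 CPM in WT and from 61.7, 54.5 and 51.7 to 75.5, 77.3 and 68.1 CPM in KO. Both rises passed, with log2 changes of 0.70 and 0.39, and the interaction was -0.30 (SE 0.16). Psmd2 went from 78.6, 79.7 and 99.3 to 129, 115 and 137 CPM in WT and from 109, 87.7 and 90.5 to 109, 129 and 128 CPM in KO (interaction -0.21, SE 0.15). Psmd14 had an interaction of -0.24 (SE 0.17).

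The constitutive catalytic subunits were then set against their interferon-inducible counterparts, which replace them in the immunoproteasome. Per exon length, Psmb8 was at 98.9 ± 14.8 RPKM and Psmb5 at 19.7 ± 1.32 RPKM in WT 0 h (n = 3). Psmb9 was at 37.3 ± 2.82 RPKM, against 103 ± 2.92 RPKM for Psmb6, and Psmb10 at 58.7 ± 6.36 RPKM, against 75.4 ± 6.48 RPKM for Psmb7 (n = 3). Psmb8 rose with time in both genotypes, with log2 changes of 0.40 (SE 0.10, adjusted p = 0.000873, edgeR) and 0.39 (SE 0.10, adjusted p = 0.0012, edgeR). Psmb9 and Psmb10 did not pass in either genotype, with log2 changes of 0.27 and -0.23 in WT and 0.21 and -0.11 in KO.

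The ratio of the reads of each pair within a library does not depend on library scaling. It was tested with a two-sided exact permutation test, over genotypes with time as stratum and over times with genotype as stratum, and 6 tests were adjusted together (smallest unadjusted p possible 0.005). The log2 ratio of Psmb9 to Psmb6 was -0.65, -0.79 and -0.69 in WT 0 h and -0.49, -0.35 and -0.35 in WT 24 h. It was -0.51, -0.68 and -0.27 in KO 0 h and -0.32, -0.09 and -0.03 in KO 24 h. The ratio was higher at 24 h by 0.33 on the log2 scale (exact permutation p = 0.01, adjusted p = 0.02), with no overlap of the times in WT. It was higher in KO by 0.24 (exact permutation p = 0.01, adjusted p = 0.02), with 0.23 at 0 h and 0.25 at 24 h, and the genotypes were apart at 24 h and overlapped at 0 h. The Psmb10 to Psmb7 ratio was -0.18, -0.14 and -0.24 in WT 0 h, -0.53, -0.57 and -0.33 in WT 24 h, -0.20, -0.02 and -0.23 in KO 0 h and -0.23, -0.27 and -0.29 in KO 24 h. It was lower at 24 h by a log2 difference of -0.20 (exact permutation p = 0.005, adjusted p = 0.02), and the difference of 0.12 between genotypes did not pass (adjusted p = 0.12). The Psmb8 to Psmb5 ratio passed in neither test, with log2 differences of -0.13 over time (exact permutation p = 0.27) and 0.20 for KO against WT (exact permutation p = 0.11, adjusted p = 0.132).

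Each of these ratio calls was lost when certain single libraries were left out. Fewer libraries allow fewer arrangements, and the Psmb9 to Psmb6 difference between genotypes reached adjusted p-values of 0.05 to 0.07 when 1 of WT 0 h replicates 1, 2 and 3, KO 0 h replicate 3 or WT 24 h replicates 1, 2 and 3 was left out, at log2 differences of 0.19 to 0.26. Both calls over time were lost without WT 0 h replicate 1 (adjusted p = 0.05) or WT 0 h replicate 2 (adjusted p = 0.07), at 0.34 and 0.31 for Psmb9 to Psmb6 and at -0.20 and -0.19 for Psmb10 to Psmb7. Without WT 0 h replicate 3 the Psmb8 to Psmb5 difference between genotypes was 0.28 and passed (adjusted p = 0.03). Exons of Psmb9 overlap Tap1 over 15.7% of their length and those of Psmb8 overlap Gm20496 over 11.4%.

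**Figure D5:**
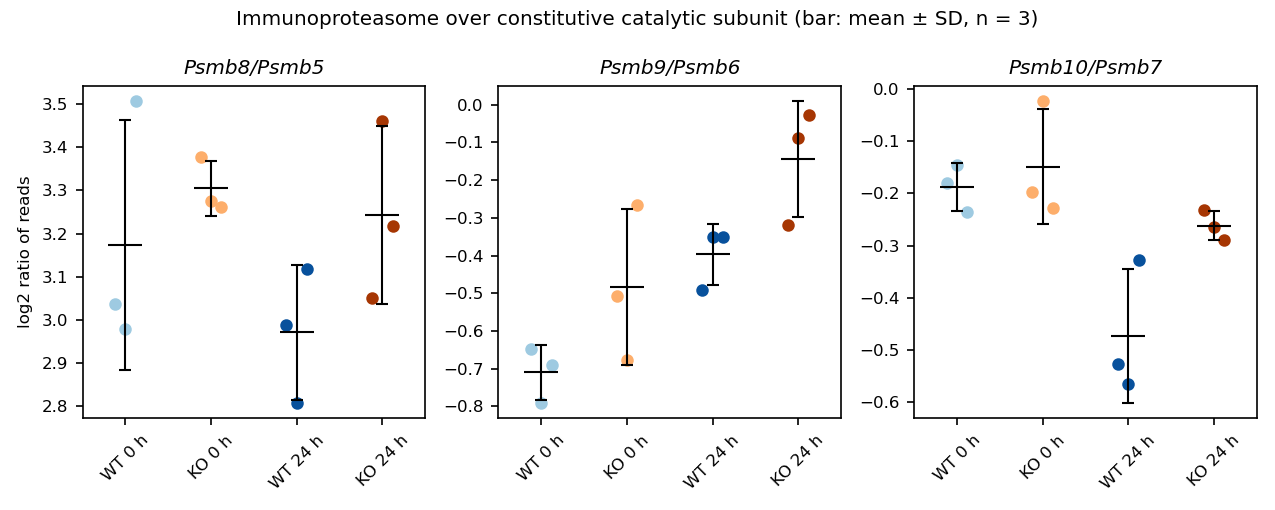
Log2 ratio of the reads of each immunoproteasome subunit to those of the constitutive subunit it replaces (y axis), in each of the 12 libraries, with mean ± SD of 3 libraries a group in black. The ratio of Psmb9 to Psmb6 is higher in KO than in WT at 24 h in all libraries, and that of Psmb10 to Psmb7 is lowest in WT 24 h.

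Partners of the proteasome without a Psm symbol were mixed. Of 14 such genes measured, 8 rose and 3 fell in WT, and 5 rose and 2 fell in KO. Of all genes tested, 20.2% rose and 20.5% fell in WT, and 19.4% rose and 21.0% fell in KO. AI314180, the mouse symbol of the scaffold Ecm29, rose with log2 changes of 0.82 in WT and 0.74 in KO. Usp14, a deubiquitylase on the cap, rose by 0.73 in WT and 0.51 in KO on the log2 scale. Zfand2a, a stress-induced partner of the cap, fell by 0.92 in WT and 0.95 in KO on the log2 scale.

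Among 10 tested genes of the NFE2L1 axis, which controls proteasome genes when proteasome activity is low, 4 rose and 1 fell in both genotypes. The shares over all genes tested were 20.2% higher and 20.5% lower in WT, and 19.4% and 21.0% in KO. Bach1, a repressor at antioxidant response elements, rose with log2 changes of 1.37 in WT and 1.40 in KO, and its partner Mafg with 1.03 and 1.22. Maff fell by 1.67 in WT and 1.29 in KO on the log2 scale. Nfe2l1 itself, named here after its values were seen, was at 64.8 ± 3.84 CPM in WT 0 h and 105 ± 13 CPM in WT 24 h (n = 3), a log2 change of 0.69 (SE 0.10, adjusted p = 3.93e-07, edgeR), with 0.86 in KO. Nfe2l2, also named after its values were seen, was at 112 ± 9.26 CPM in WT 0 h and 106 ± 14.5 CPM in WT 24 h. In KO it was at 106 ± 3.61 CPM at 0 h and 92.6 ± 6.63 CPM at 24 h (n = 3).

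Of 16 tested ubiquitin genes and shuttle factors, 4 rose and 5 fell in WT, and 3 rose and 4 fell in KO, beside 20.2% higher and 20.5% lower in WT and 19.4% and 21.0% in KO over all genes tested. The shuttle Ubqln2 fell by 0.56 in WT and 0.59 in KO on the log2 scale. Ubiquitin genes share sequence with each other, so their counts are uncertain. In neither genotype comparison nor the interaction did a gene of these 3 lists, or of Psmb8, Psmb9 and Psmb10, pass (edgeR). At an unadjusted p below 0.05, the ubiquitin list had 3 genes at 0 h and 1 at 24 h, the NFE2L1 axis 1 and 2, the partners 0 and 0, the 3 interferon-inducible subunits 1 and 1, and the interaction had 0. Of the 10981 genes tested, 878 had such a p at 0 h, 775 at 24 h and 575 for the interaction (edgeR).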

How the data were processed

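Read counts per gene symbol were used as deposited, 1 column for each of 12 libraries of total RNA with ribosomal RNA reduced. The submitters' processing notes name STAR 2.6.0c, DESeq and the human build hg19, so the build behind these mouse counts is uncertain. The sources used here name no counter, annotation or strand setting. Entries that name no gene were left out: of all reads, 22.8% to 35.4% had no feature, 0.412% to 0.576% were ambiguous and 25.7% to 30.9% aligned to several places.

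One edgeR 4.0.16 quasi-likelihood fit (R 4.3.3, TMM, robust dispersion, 4 groups, no covariate) covered the 10981 genes kept by filterByExpr (min.count 10, min.total.count 15). Benjamini-Hochberg adjustment ran over all of them, with a threshold of 0.05. The biological coefficient of variation was 0.115. The fit was tested on simulated data. Libraries of a group differed by more than counting noise (chi-square per gene 3.23 to 15.5). Exon lengths, overlaps and near copies came from the GENCODE vM21 annotation, and promoter windows from RefSeq.

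The members and lists were chosen with earlier results of these data known. Values per library are given for the 3 genes with the smallest p between genotypes and for the interaction, the highest and lowest change over time in WT in each role, and the catalytic, deubiquitylating, activator and inhibitor genes, and up to 3 changed genes are named of each other list. Some genes that this rule names are not reported here. Alternatives were DESeq2 1.42.0, other scalings and filters, pairwise fits, a replicate block and leaving out each library.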

Additional observations from a re-analysis of the deposited data

How the results depend on the processing

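None of the alternatives tried changed a count over all 44 members by over 1.5 times, but counts by role did change: with total gene reads the beta genes passing went from 1 to 6 in WT and from 2 to 5 in KO, and the core chaperones in KO from 0 to 2. With that scaling the genes passing as higher, of all 10981 tested, went from 2217 to 3580 in WT and from 2129 to 3708 in KO. No change that passed the test reversed its sign. The negative changes over time of Psmb6, Psmb7, Psmd4, Psmg1, Psmd5 and Psmd13, none of which passed, were positive with total gene reads. Genes higher at 24 h numbered 22 to 26 in WT and 18 to 23 in KO when 1 library was left out, and 0 passed between genotypes or for the interaction in any refit. Of the 26 calls in WT, 21 were kept in every refit and setting, and of the 22 in KO, 16. With the replicate number as a block the counts were 26, 22, 0, 0 and 0, with Psmb1 gained and Psmc4 lost in WT. The sources do not say whether the numbers pair the libraries. Deviations of same-numbered libraries correlated at -0.126 to 0.107, those of other pairs at -0.174 to 0.166. Between the times of WT, same-numbered pairs had 0.01, 0.09 and 0.11, and other pairs -0.10 to 0.02. Between the times of KO, same-numbered pairs had 0.03, -0.01 and 0.04. Such weak correlations cannot decide whether the libraries are paired. Leaving out 1 library gave log2 ratio differences over time of -0.187 to -0.0493 (Psmb8 to Psmb5), 0.277 to 0.38 (Psmb9 to Psmb6) and -0.237 to -0.168 (Psmb10 to Psmb7). Between genotypes they were 0.147 to 0.284, 0.185 to 0.288 and 0.0932 to 0.161 in the same order. Depth limits Psmb11, at 1.39 to 4.94 CPM.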

Other observations

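The CCT chaperonin, a folding machine for actin, tubulin and other proteins, also rose. Of its 8 genes, 7 were higher at 24 h in WT and 6 in KO (edgeR, adjusted p below 0.05). Over all genes tested the shares were 20.2% in WT and 19.4% in KO. In WT the sum of the 8 genes went from 1011 ± 44.6 to 1407 ± 112 CPM (n = 3). Tcp1 had a log2 change of 0.82 in WT and 0.70 in KO, Cct6a 0.69 and 0.70, and Cct4 0.46 and 0.42. Cct5 did not pass in either genotype (log2 0.16 and 0.14). The sum was 944 ± 34.8 CPM in KO 0 h and 1292 ± 37.3 CPM in KO 24 h (n = 3), and 0 of the 8 genes passed between genotypes. At each time 1 of the 8 had an unadjusted p below 0.05 (edgeR), against 878 (0 h) and 775 (24 h) of the 10981 genes tested. The log2 difference of KO against WT was negative for 7 of the 8 at 0 h and for 8 at 24 h. Over all genes tested it was negative for 5380 at 0 h and 5736 at 24 h. The median of the 8 was -0.11 at 0 h and -0.14 at 24 h. Their smallest adjusted p was 0.119 at 0 h and 0.687 at 24 h (edgeR).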
